A study of Mus musculus with 16 samples.

Results

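The genes described are the translation initiation factors (eIF) and elongation factors (eEF) of the mouse, the proteins that place a ribosome on the start codon of an mRNA and then move it along. Members were taken by symbol: rows whose names begin with Eif and a digit from 1 to 6, or with Eef and 1 or 2, without Eif2s3x, Eif2s3y and the Eif2ak kinases, and kept where 4 or more of the 16 libraries reached 1 TPM, a transcript level scaled by gene length and by library. Of 20601 genes listed, 73 had such a name, 67 remained after the exclusions and 62 passed the filter. The 5 that did not pass were Eef1a2 (highest value 1.85 TPM), Eif5a2 (0.492), Eif1ad2 (0.389) and a pair of Eif3s6 pseudogenes, so the isoforms Eef1a2 and Eif5a2 were near the limit of detection in every library. Eef1akmt3 passed through 7 libraries and Eef1a1-ps1 through 6. The 7 of Eef1akmt3 are all tumors, so that gene could pass only by being higher there. Its tumor comparisons are described by levels only, and the main counts of rises that hold it are also given without it.

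The study measured polyadenylated RNA by RNA-seq in liver tumors and in nontumor liver of 8 mice. Each mouse had been injected hydrodynamically, which drives plasmid into hepatocytes, with 19 µg of a human N-Ras construct, 1 µg of a human c-Myc construct and 2 µg of a Sleeping Beauty transposase construct, whose enzyme inserts the oncogenes into the genome. From week 4 until tissue collection in week 8 they ate a normal diet (ND) or a ketogenic diet (KD) in which fat made up 89.5%, protein 10.4% and carbohydrate 0.1%. This gave 4 groups of 4 libraries: ND nontumor, ND tumor, KD nontumor and KD tumor. Nontumor liver came from the same injected mice, so it is not untreated liver, and the 16 libraries are not all independent. The labels do not say which tumor and nontumor library share a mouse, and the p-values below rest on the spread from library to library. The promoter that drives the oncogenes and the strain, sex and age of the mice are not given in the sources used here. The comparisons ask how these genes differ between tumor and nontumor liver on each diet, and between the diets within each tissue.

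Initiation starts with eIF2, which brings the initiator methionyl-tRNA to the small ribosomal subunit, where eIF1, eIF1A, eIF3 and eIF5 help to find the start codon. The eIF4F complex recruits the mRNA: Eif4e binds the cap, Eif4a1 or Eif4a2 unwinds the leader and Eif4g1 or Eif4g3 holds them together. In elongation, eEF1A delivers aminoacyl-tRNAs, the eEF1B subunits recharge it with GTP, eEF2 moves the ribosome by a codon and eIF5A relieves stalls. The system is best known for its control by mTORC1, which releases Eif4e from the 4E-binding proteins, and by stress kinases that phosphorylate the eIF2 alpha subunit. MYC is known to raise the transcription of many of these genes.

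Because the tumors carry a MYC transgene, the promoters are shown first. The motif CACGTG, an E-box that MYC with its partner MAX binds and that reads the same on both strands, was searched in 300 bases around each RefSeq start (250 before and 50 after; GRCm38.p6). Of the 62 genes, 45 were in the promoter table, and 13 of these (28.9%) held the motif. Among all 10291 tested genes in that table the share was 11.5%, and among all 27025 genes it was 8.09%. The stretches below, read on the strand of the gene, carry the E-box in capitals and belong to 5 genes whose levels are described further on: the cap-binding protein, a helicase cofactor, an eIF3 subunit, eIF5A and eEF2.
Eif4e (chr3:138527177-138527236, plus strand): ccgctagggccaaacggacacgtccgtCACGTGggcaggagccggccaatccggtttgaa
Eif4h (chr5:134639473-134639532, minus strand): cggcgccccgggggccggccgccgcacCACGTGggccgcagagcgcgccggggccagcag
Eif3f (chr7:108934320-108934379, plus strand): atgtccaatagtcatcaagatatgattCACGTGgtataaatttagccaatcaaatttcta
Eif5a (chr11:69921428-69921487, minus strand): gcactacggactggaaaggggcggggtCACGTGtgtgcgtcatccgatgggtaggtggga
Eef2 (chr10:81176561-81176620, plus strand): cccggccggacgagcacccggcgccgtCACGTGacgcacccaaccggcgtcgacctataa

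The other 8 genes with the motif were Eef1aknmt, Eif3k, Eef2k, Eif1b, Eif4a1, Eef1akmt4, Eif4g1 and Eif3a. All genes whose stretches are shown rose in tumors on KD, while Eef2k, Eif1b and Eif4g1 did not. A terminal oligopyrimidine start, a C followed by 4 pyrimidines from the first transcribed base, is the mark of many mRNAs under mTORC1 control. At the exact annotated starts of this table, any start of a gene counting, it was found in 1 of the 45 genes (2.22%), against 2.97% of tested genes. A start annotated slightly off would hide it, and in Eef1a1 a C followed by pyrimidines begins directly before the annotated start. The count therefore cannot show that the other genes lack such a start. That gene was Eif3f, whose start is shown with the transcribed bases in capitals.
Eif3f start (chr7:108934395-108934424, plus strand): gctcttctgttctaggctctCTCTCTTTCT
The ATF4 response element TGATGNAA, searched on both strands, was found in 1 of 45 promoters (2.22%, Eef2k) and in 2.89% of tested genes. A match describes these letters in this window and no binding was measured.

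Depth over the listed genes, recovered from the steps of the values, ran from about 3518970 reads in ND nontumor 4 to about 14074000 in KD tumor 3, and the median gene of the 62 had between 130 and 1063 reads per library. ND nontumor 4 stands apart: its listed values add up to 7.38% of a full TPM total, against 49.96% to 88.4% in the other libraries. For this reason all levels below are rescaled TPM, the deposited TPM divided by 1 median-of-ratios factor per library (0.128 in ND nontumor 4, 0.937 to 1.52 in the others), and all fold changes are on the log2(rescaled TPM + 1) scale. Each gene was tested with limma over all 13432 genes that passed the same filter, n = 4 per group, with Benjamini-Hochberg adjustment and a threshold of 0.05. The scale matters: leaving the deposited TPM as they are moves the median of all genes by 0.42 (ND) and -0.26 (KD) in tumor against nontumor liver and by 0.69 in the diet comparison of nontumor liver. Bringing the listed genes to a common sum moves it by 0.21, -0.26 and, for KD against ND in tumors, -0.33. TPM are per length. The length that the values imply was within 10% of the GENCODE exon union for 92.8% of 19989 genes. That union can be longer than the expressed transcript, so levels of different genes compare only roughly. In bulk tissue, fewer cells of a type and less RNA per cell cannot be told apart.

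In tumors the translation factors were shifted upward on both diets. On ND, 18 of the 62 genes rose, 2 fell and 42 did not pass, where 14.5% of all tested genes rose, 14.2% fell and 28.7% passed in either direction. On KD, 33 rose, 1 fell and 28 did not pass, where 16.3% of all tested genes rose, 16.2% fell and 32.5% passed in either direction. The median log2 fold change of the 62 genes was 0.23 on ND and 0.60 on KD, beside -0.00 and 0.01 over all tested genes. On ND, 21 genes lay higher and 1 lower in tumors without overlap (13.8% and 13.7% of all tested genes), and on KD 31 and 2 (15.8% and 17.3%). The same 17 genes rose on both diets, namely Eef1a1, Eef1b2, Eef1g, Eef2, the modifying enzymes Eef1akmt1, Eef1akmt3 and Eef2kmt, the eIF3 subunits Eif3b, Eif3e, Eif3f and Eif3i, and Eif1a, Eif2d, Eif4b, Eif4e2, Eif4ebp1 and Eif6. On the deposited TPM the split was 3 higher and 0 lower on ND and 2 higher and 1 lower on KD, and with a common sum it was 27 and 0 on ND and 19 and 3 on KD. Each of the 16 genes other than Eef1akmt3 had a positive fold change on both of these scales as well as on the rescaled one. All counts above of genes higher in tumors, those without overlap included, hold Eef1akmt3, whose direction its filter fixed. Without it 17 rose on ND, 32 on KD and 16 on both diets. With a common sum all 18 rises on ND were kept, the ND falls of Eif2b4 and Eif4a2 ended, and on KD 19 of 33 rises were kept. The 14 KD rises that ended were those of Eef1aknmt, Eef1d, Eif2b3, Eif2d, Eif2s2, Eif3a, Eif3b, Eif3c, Eif4a1, Eif4b, Eif4e, Eif4ebp2, Eif4h and Eif6.

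**Figure D1:**
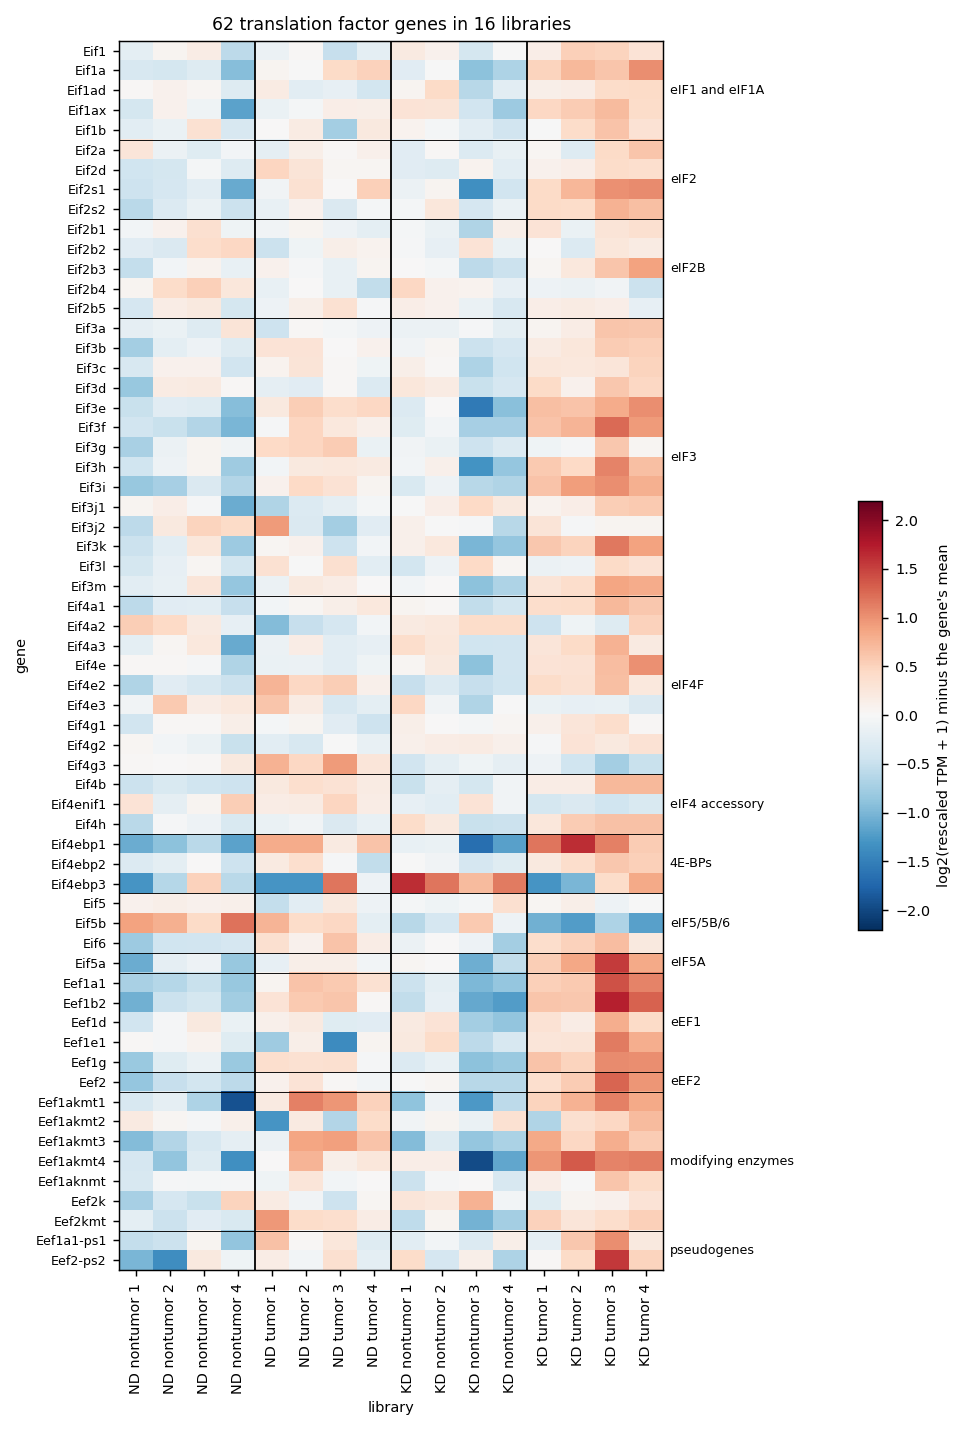
Heat map of the 62 genes (rows, grouped by complex) in the 16 libraries (columns); color gives log2(rescaled TPM + 1) minus the mean of the gene over all libraries. Most eIF3, eEF1 and eEF2 genes are red in the KD tumor columns and many are blue in the nontumor columns, while Eif5b is blue in KD tumors and KD nontumor 3 and 4 are bluer than KD nontumor 1 and 2.

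The summed level of the 62 genes was 2951 ± 343 rescaled TPM (SD, n = 4) in ND nontumor, 4397 ± 420 in ND tumor, 3062 ± 563 in KD nontumor and 6163 ± 1325 in KD tumor. KD tumor 3 (7843) and KD tumor 4 (6588) were above KD tumor 1 (4949) and KD tumor 2 (5274), and KD nontumor 3 (2483) and KD nontumor 4 (2692) were below KD nontumor 1 (3415) and KD nontumor 2 (3656). On this scale every tumor library lay above every nontumor library. On the deposited TPM, ND tumor 1 (3742) was below ND nontumor 1 (4015) and below KD nontumor 1 to 3 (4187, 4802 and 3779). As a percent of all listed TPM the sum was 0.466 ± 0.039 in ND nontumor, 0.832 ± 0.10 in ND tumor, 0.519 ± 0.042 in KD nontumor and 0.836 ± 0.16 in KD tumor libraries. On that scale tumor and nontumor libraries were again apart, and the tumors of the diets had nearly equal means. Eef1a1 alone made up 25.1% to 28.9% of the sum in nontumor libraries and 32.3% to 41.3% in tumor libraries.

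Elongation factors gave the largest absolute changes. Eef1a1, which carries aminoacyl-tRNAs to the ribosome and was the most abundant of the 62 genes (chr9:78478449-78489151, minus strand, GRCm38), stood at 755, 797, 872 and 690 rescaled TPM in ND nontumor 1 to 4 and at 1292, 1907, 1828 and 1562 in ND tumor 1 to 4. On KD it stood at 887, 1058, 623 and 681 in nontumor and at 1769, 1843, 3236 and 2624 in tumor libraries. On each diet all 4 tumor values exceeded all 4 nontumor values. Eef1a1 rose by 1.07 ± 0.26 (log2, SE; adjusted p = 0.0062) on ND and by 1.53 ± 0.26 (adjusted p = 0.000469) on KD.

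Eef1b2, the catalytic eEF1B subunit that reloads eEF1A with GTP, was at 44.8, 68.0, 71.7 and 55.2 rescaled TPM in ND nontumor and 117, 141, 145 and 96.5 in ND tumor libraries (gene at chr1:63176825-63180486, overlapping Ndufs1 on the other strand). On KD its levels were 64.3, 83.6, 42.9 and 39.9 in nontumor and 145, 142, 312 and 232 in tumor libraries. The groups did not overlap on either diet, and the spread was widest in the KD tumors. Its change was 1.05 ± 0.28 (adjusted p = 0.0102) on ND and 1.82 ± 0.28 (adjusted p = 0.000205) on KD. The structural subunit Eef1g rose by 0.77 ± 0.22 (adjusted p = 0.0152) and 1.34 ± 0.22 (adjusted p = 0.000322). Without ND nontumor 1, the ND value for Eef1g was 0.67 with an adjusted p of 0.051. The third exchange subunit, Eef1d, changed by 0.04 ± 0.25 on ND (adjusted p = 0.925) and rose by 0.71 ± 0.25 on KD (adjusted p = 0.0417). Its call was kept in 10 of the 16 fits that each left out a library and was lost without ND nontumor 2, KD nontumor 3, KD nontumor 4, KD tumor 1, KD tumor 3 or KD tumor 4. Eef1e1, a small scaffold protein of the aminoacyl-tRNA synthetase complex, passed on neither diet (-0.45 ± 0.32 and 0.70 ± 0.32).

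Eef2, the translocase, was at 195, 247, 264 and 234 rescaled TPM in ND nontumor and 372, 434, 356 and 335 in ND tumor libraries. On KD it was at 348, 362, 230 and 229 in nontumor and 450, 514, 852 and 686 in tumor libraries. Tumor and nontumor values did not overlap on either diet. The rise was 0.67 ± 0.23 (adjusted p = 0.0393) on ND and 1.08 ± 0.23 (adjusted p = 0.00224) on KD. The ND call was kept in 9 of 16 fits without a library, with a highest adjusted p of 0.106 without ND nontumor 1, and was lost without ND nontumor 2, ND nontumor 3, ND nontumor 4, ND tumor 1, ND tumor 2 or ND tumor 3 too. The kinase that inhibits eEF2, Eef2k, was low (0.92 to 4.38 rescaled TPM over all libraries) and did not pass on ND (0.20 ± 0.25) or KD (-0.26 ± 0.25).

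Eif5a, which carries the modified amino acid hypusine and helps ribosomes through stalling sequences, was at 55.2, 104, 110 and 66.5 rescaled TPM in ND nontumor and 105, 131, 131 and 115 in ND tumor libraries. In KD nontumor libraries it was at 124, 121, 55.96 and 82.1, and in KD tumor libraries at 175, 217, 350 and 214. The ND groups overlapped and the KD groups did not. Eif5a changed by 0.57 ± 0.28 (adjusted p = 0.146) on ND and rose by 1.33 ± 0.28 (adjusted p = 0.00217) on KD.

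**Figure D2:**
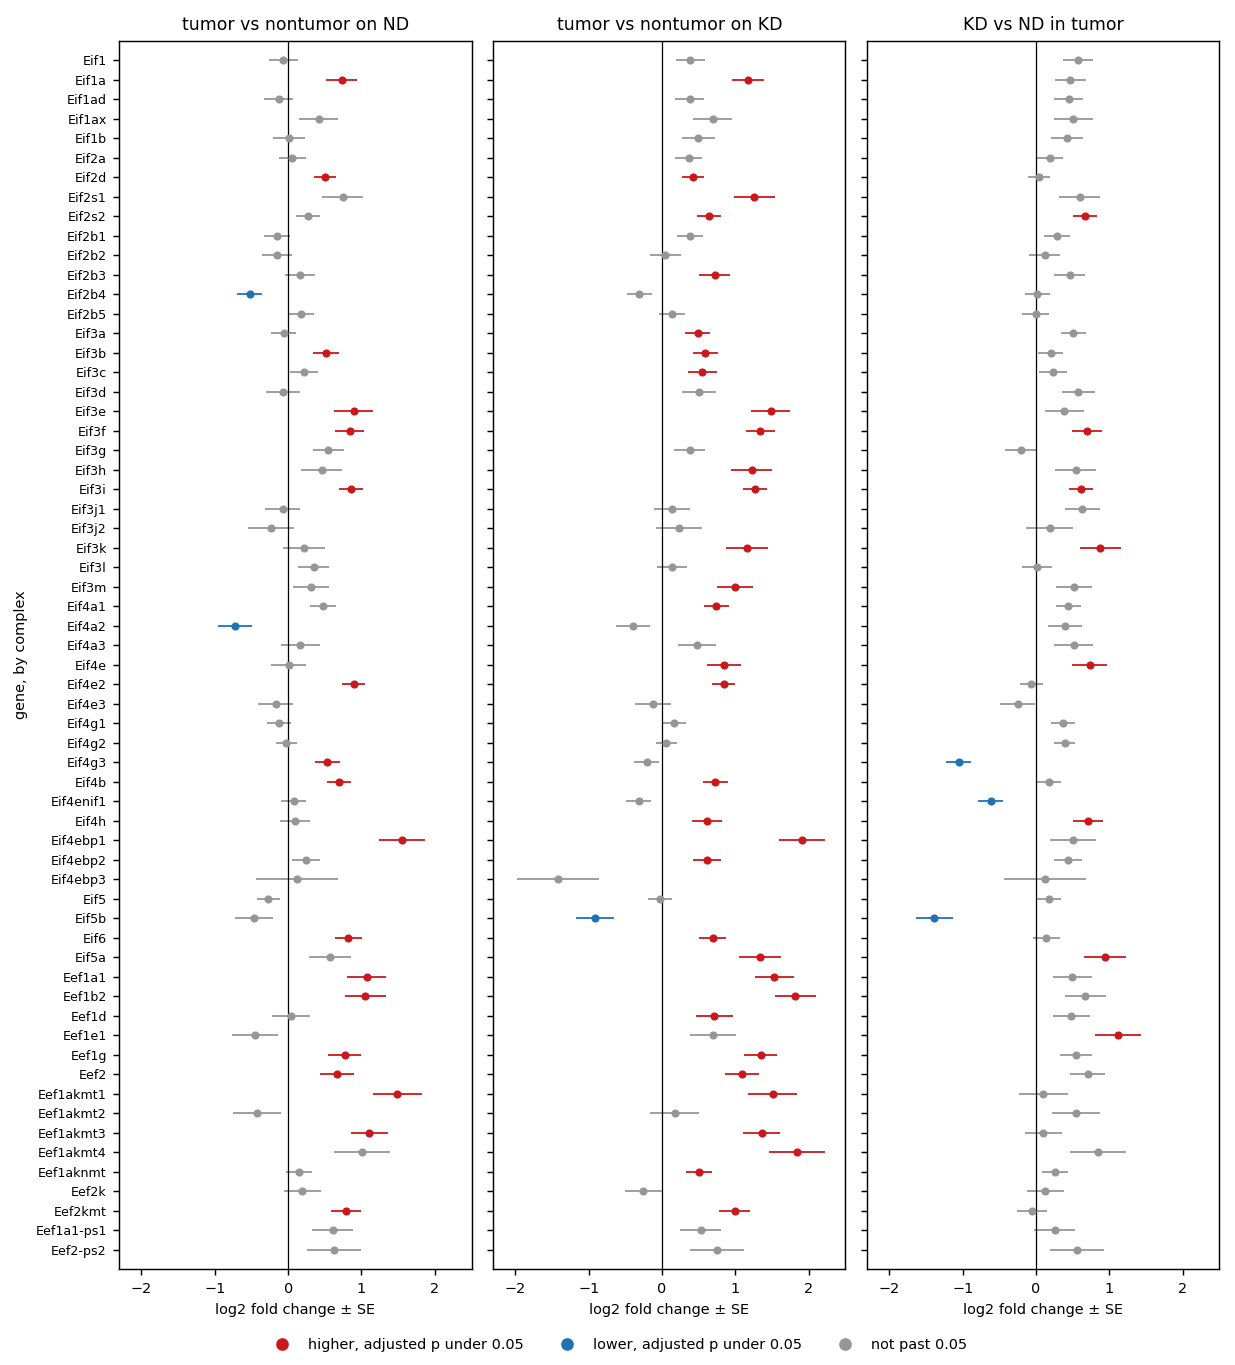
Log2 fold change (points) with its standard error (bars) of each of the 62 genes for tumor against nontumor liver on ND, on KD, and for KD against ND in tumors; red and blue mark adjusted p under 0.05 in limma, which for Eef1akmt3 follows from its filter. Eif4ebp1 (1.55 and 1.91) sits furthest to the right in both tumor comparisons, and Eif5b (-1.39) and Eif4g3 (-1.05) furthest to the left in the diet comparison of tumors.

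The 7 modifying enzymes are 6 methyltransferases of elongation factors and the kinase Eef2k. Leaving out Eef1akmt3, 2 of 6 rose on ND (14.5% of all tested genes) and 4 of 6 on KD (16.3%), and 0 fell. Eef1akmt1, a lysine methyltransferase of eEF1A, was at 4.86, 5.56, 3.69 and 0.993 rescaled TPM in ND nontumor and 7.59, 15.2, 13.8 and 9.73 in ND tumor libraries. In KD nontumor libraries it was at 3.06, 5.94, 2.11 and 4.05, and in KD tumor libraries at 9.52, 11.7, 15.2 and 12.3. Tumor values lay above all nontumor values on both diets, with changes of 1.49 ± 0.33 (adjusted p = 0.00334) and 1.51 ± 0.33 (adjusted p = 0.00292). Eef1akmt3 had at most 0.692 rescaled TPM in any nontumor library, 0.778 to 2.63 in ND tumors and 1.66 to 2.47 in KD tumors. Eef1akmt2 passed on neither diet (-0.42 ± 0.33 and 0.17 ± 0.33), and Eef1aknmt changed by 0.15 ± 0.18 on ND and rose by 0.51 ± 0.18 on KD (adjusted p = 0.0359). Eef1akmt4 ran from 1.17 to 3.57 rescaled TPM in ND nontumor, 4.58 to 8.33 in ND tumor, 0.413 to 5.14 in KD nontumor and 9.92 to 13.1 in KD tumor libraries, without overlap on either diet. Its change was 1.00 ± 0.38 (adjusted p = 0.0593) on ND and 1.84 ± 0.38 (adjusted p = 0.00183) on KD. Eef2kmt, which methylates eEF2, rose by 0.79 ± 0.21 (adjusted p = 0.00995) and 0.99 ± 0.21 (adjusted p = 0.00209). Eef1akmt3 overlaps Mettl1 on the opposite strand, Eef1akmt4 overlaps Alg3 and Eef2kmt overlaps Alg1 in GENCODE M21, and strand use in the counting is not given in the sources used here, so reads of these pairs cannot be told apart.

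Among the eIF3 subunits, which together form the scaffold of the preinitiation complex, 4 of 14 rose on ND and 9 of 14 on KD, and 0 fell. Of all tested genes 14.5% rose and 14.2% fell on ND, and 16.3% rose and 16.2% fell on KD. Eif3i was at 12.8, 13.9, 18.9 and 14.7 rescaled TPM in ND nontumor and 25.2, 32.4, 30.0 and 24.6 in ND tumor libraries. Its KD levels were 18.6, 22.0, 15.1 and 14.7 in nontumor and 37.0, 45.9, 49.1 and 41.5 in tumor libraries. No tumor value was as low as any nontumor value of its diet. The change was 0.86 ± 0.17 (adjusted p = 0.00118) on ND and 1.27 ± 0.17 (adjusted p = 5.46e-05) on KD, the smallest adjusted p of the 62 genes on KD.

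Eif3e rose by 0.89 ± 0.26 (adjusted p = 0.0179) on ND and 1.48 ± 0.26 (adjusted p = 0.000587) on KD, from 10.99 to 18.1 rescaled TPM in ND nontumor and 6.75 to 21.9 in KD nontumor libraries. Without ND nontumor 4 the ND value was 0.74 with an adjusted p of 0.0569. Eif3f rose by 0.84 ± 0.20 (adjusted p = 0.00482) and 1.34 ± 0.20 (adjusted p = 0.000148). Eif3b rose by 0.51 ± 0.17 (adjusted p = 0.0363) and 0.59 ± 0.17 (adjusted p = 0.0164). Its ND call was kept in 11 of 16 fits without a library and lost without ND nontumor 1, ND nontumor 2, ND nontumor 4, ND tumor 1 or ND tumor 2, and its KD call was kept in 13 and lost without KD nontumor 3, KD nontumor 4 or KD tumor 3. Eif3h, Eif3k and Eif3m passed on KD with 1.22, 1.16 and 1.00 and not on ND. The largest subunit, Eif3a, changed by -0.06 ± 0.17 on ND and rose by 0.48 ± 0.17 on KD (adjusted p = 0.0403), a call kept in 9 of 16 fits without a library and lost without ND nontumor 2, any of the 4 KD nontumor libraries, KD tumor 3 or KD tumor 4. Eif3d, the subunit that can bind caps itself, passed on neither diet (-0.07 ± 0.23 and 0.50 ± 0.23), nor did Eif3l, Eif3g, Eif3j1 or Eif3j2.

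The eIF4E-binding proteins hold the largest rise of the initiation genes. Eif4ebp1, the repressor that mTORC1 phosphorylates to free Eif4e, was at 17.2, 19.8, 24.7 and 16.1 rescaled TPM in ND nontumor and 67.1, 66.8, 43.4 and 58.5 in ND tumor libraries. On KD it was at 33.6, 33.8, 11.2 and 15.95 in nontumor and 86.4, 118, 82.0 and 56.1 in tumor libraries. Tumor values exceeded nontumor values throughout on both diets, and KD nontumor 1 and 2 were above KD nontumor 3 and 4. Eif4ebp1 rose by 1.55 ± 0.31 (adjusted p = 0.00137) on ND and 1.91 ± 0.31 (adjusted p = 0.000291) on KD. Eif4ebp2 changed by 0.24 ± 0.19 on ND (adjusted p = 0.378) and rose by 0.61 ± 0.19 on KD (adjusted p = 0.0218), a call lost without KD nontumor 3, KD nontumor 4 or KD tumor 3 (highest adjusted p 0.0628). Eif4ebp3 was low, with 0 to 6.57 rescaled TPM over the libraries and 2.99 to 6.57 in KD nontumor libraries. In tumors it changed by 0.121 on ND and by -1.42 on KD and passed on neither diet. The KD groups overlapped at KD tumor 4. Its KD value passed as lower on the deposited TPM (-1.74, adjusted p = 0.00667 in limma) and with a common sum (-1.65, adjusted p = 0.0371).

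Among the genes grouped with eIF4F by symbol, the members moved in different directions. Eif4e was at 9.05, 9.06, 8.73 and 5.24 rescaled TPM in ND nontumor and 7.88, 8.00, 7.46 and 8.28 in ND tumor libraries. In KD nontumor libraries it was at 9.15, 10.5, 4.29 and 6.38, and in KD tumor libraries at 11.2, 11.3, 14.9 and 18.9. The ND groups overlapped and the KD groups did not. The change was 0.01 ± 0.24 (adjusted p = 0.987) on ND and 0.84 ± 0.24 (adjusted p = 0.0122) on KD. With a common sum the KD value was 0.55 (adjusted p = 0.0729). Eif4e2, a cap-binding homologue known as a translational repressor, rose by 0.90 ± 0.16 (adjusted p = 0.000487) on ND and 0.84 ± 0.16 (adjusted p = 0.000822) on KD.

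The helicases Eif4a1 and Eif4a2 had fold changes of opposite sign. Eif4a1 was at 88.3 to 112 rescaled TPM in ND nontumor, 126 to 155 in ND tumor, 89.97 to 137 in KD nontumor and 172 to 216 in KD tumor libraries. Its change was 0.47 ± 0.17 (adjusted p = 0.0516) on ND and 0.74 ± 0.17 (adjusted p = 0.00415) on KD. Eif4a2 was at 128, 119, 100 and 77.3 in ND nontumor and 44.4, 61.0, 66.9 and 83.2 in ND tumor libraries, where ND tumor 4 overlapped ND nontumor 4. On KD it was at 99.6, 103, 115 and 116 in nontumor and 63.0, 81.5, 71.3 and 125 in tumor libraries, where KD tumor 4 lay above all nontumor values. Eif4a2 fell by 0.73 on ND (SE 0.23, adjusted p = 0.0258) and changed by -0.39 ± 0.23 on KD (adjusted p = 0.206). The ND call was lost without ND nontumor 1, ND nontumor 2, ND tumor 1 or ND tumor 2 (highest adjusted p 0.0915) and on the deposited scale (-0.086). Eif4a2 holds several small nucleolar RNAs in its introns and overlaps Rfc4 on the opposite strand.

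The scaffold Eif4g1 was at 55.9 to 101 rescaled TPM over all libraries and did not pass on ND (-0.12 ± 0.16) or KD (0.16 ± 0.16). Its paralogue Eif4g3 was at 44.3, 43.7, 44.3 and 50.7 in ND nontumor and 74.3, 60.0, 84.1 and 52.2 in ND tumor libraries. Eif4g3 rose by 0.53 ± 0.17 (adjusted p = 0.0274) on ND and changed by -0.21 ± 0.17 on KD (adjusted p = 0.364). The ND call was lost without ND nontumor 1, ND nontumor 2, ND nontumor 3, ND tumor 1 or ND tumor 3 (highest adjusted p 0.089). Of the accessory factors, the helicase cofactor Eif4b rose by 0.69 ± 0.17 (adjusted p = 0.00518) and 0.73 ± 0.17 (adjusted p = 0.00356). The cofactor Eif4h changed by 0.09 ± 0.20 on ND and rose by 0.61 ± 0.20 on KD (adjusted p = 0.0297), a call lost without KD nontumor 3, KD nontumor 4, KD tumor 2, KD tumor 3 or KD tumor 4 (highest adjusted p 0.106).

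**Figure D3:**
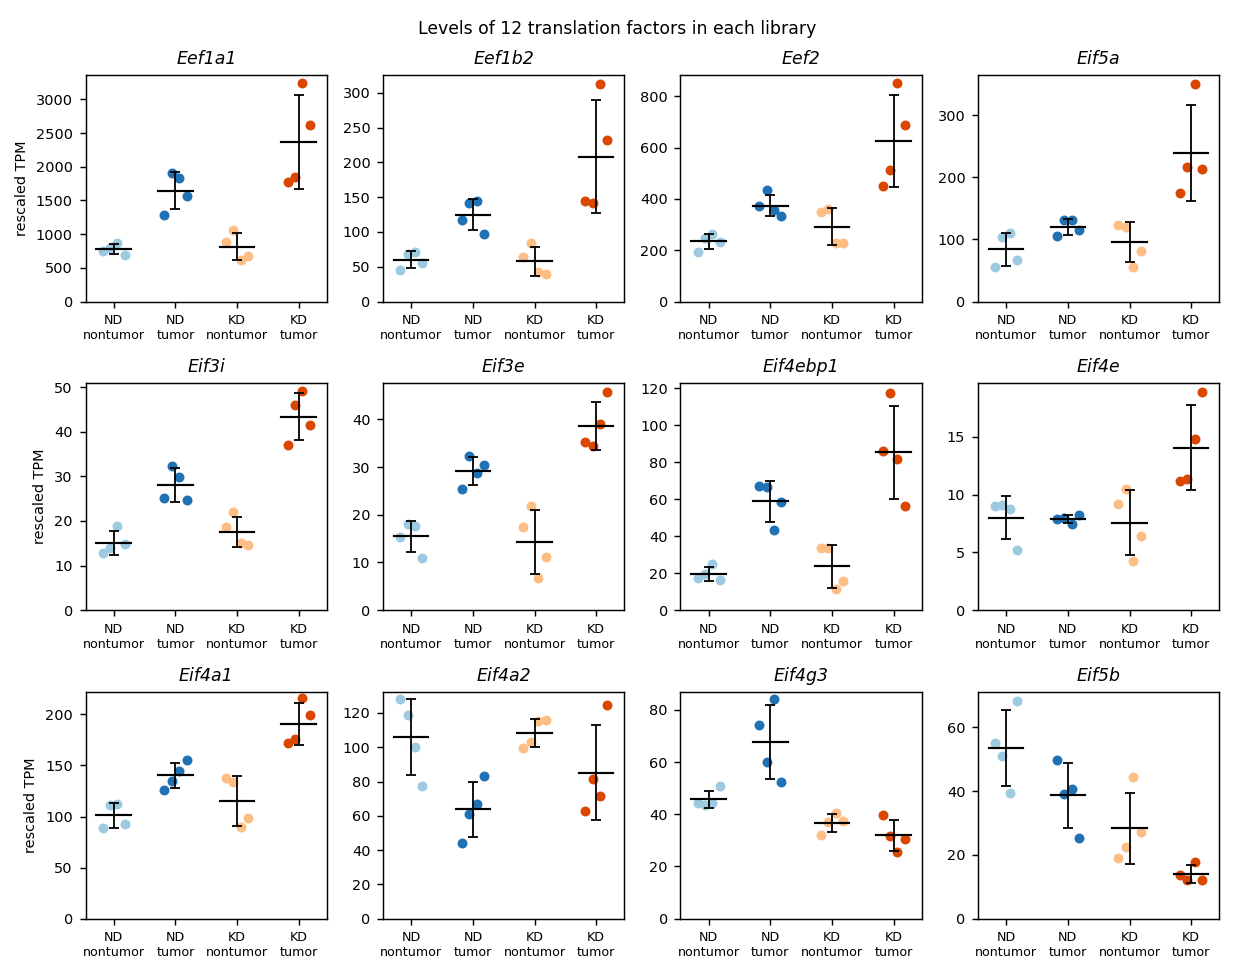
Rescaled TPM of 12 genes in each library (points, by group), with the group mean (line) and SD (bar), n = 4; every axis starts at 0. Eef1a1, Eef1b2, Eef2, Eif3i, Eif3e and Eif4ebp1 are higher in both tumor groups without overlap, Eif4e and Eif5a are highest in KD tumors, and Eif5b is lowest there.

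By symbol Eif2s1, Eif2s2, Eif2a and Eif2d were grouped with eIF2, and 1 of these 4 genes rose on ND (Eif2d) and 3 on KD. Of all tested genes 14.5% rose on ND and 16.3% on KD. The eIF2 subunits among them, Eif2s1 and Eif2s2, did not pass on ND and rose on KD. Eif2s1, the alpha subunit that stress kinases phosphorylate, was at 5.84, 6.25, 7.02 and 3.32 rescaled TPM in ND nontumor and 7.90, 10.9, 8.48 and 12.5 in ND tumor libraries. Its KD levels were 7.52, 8.76, 2.70 and 5.97 in nontumor and 11.6, 14.4, 17.8 and 18.3 in tumor libraries. The groups did not overlap on either diet. Eif2s1 changed by 0.74 ± 0.28 (adjusted p = 0.0533) on ND and rose by 1.26 ± 0.28 (adjusted p = 0.00263) on KD. The beta subunit Eif2s2 changed by 0.27 ± 0.16 on ND and rose by 0.64 ± 0.16 (adjusted p = 0.00679) on KD. Eif2d, which loads initiator tRNA outside the eIF2 route, rose by 0.50 ± 0.15 (adjusted p = 0.0203) and 0.42 ± 0.15 (adjusted p = 0.0418). Leaving out single libraries ended the ND call in 3 fits (ND nontumor 1, ND nontumor 2, ND tumor 1; highest adjusted p 0.0664) and the KD call in 8 (ND nontumor 2, ND tumor 2, KD nontumor 1, 2 and 4, KD tumor 2, 3 and 4; highest 0.111).

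Of the 5 eIF2B genes, whose complex recharges eIF2 with GTP, 0 rose and 1 fell on ND, and 1 rose and 0 fell on KD. Among all tested genes 14.5% rose and 14.2% fell on ND, and 16.3% rose and 16.2% fell on KD. The catalytic subunit Eif2b5 stayed at 14.9 to 25.2 rescaled TPM in all libraries and did not pass (0.18 ± 0.18 and 0.14 ± 0.18). Eif2b4 was at 32.0, 41.0, 44.3 and 36.7 in ND nontumor and 27.2, 30.9, 27.1 and 20.8 in ND tumor libraries, with no overlap. It fell by 0.53 on ND (SE 0.17, adjusted p = 0.0302), a change that is 0.086 on the deposited scale and that lost its call without ND nontumor 2, ND nontumor 3, ND tumor 1 or ND tumor 4 (highest adjusted p 0.0891). On KD its value was -0.31 ± 0.17. Eif2b4 overlaps Snx17 on the opposite strand. Eif2b3 rose on KD by 0.72 ± 0.21 (adjusted p = 0.0141), which was 0.0506 without KD nontumor 3.

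Of the genes grouped with eIF1 and eIF1A by symbol, Eif1a rose by 0.73 ± 0.21 (adjusted p = 0.0158) on ND and 1.17 ± 0.21 (adjusted p = 0.00066) on KD. Without ND nontumor 4 the ND adjusted p was 0.0528. Eif1, the most abundant initiation factor (150 to 323 rescaled TPM), Eif1b, Eif1ax and Eif1ad passed on neither diet. Eif6, which keeps free large subunits apart from small ones, rose by 0.82 ± 0.18 (adjusted p = 0.00339) and 0.69 ± 0.18 (adjusted p = 0.0094). Eif5, which triggers GTP hydrolysis on eIF2, passed on neither diet (-0.27 ± 0.16 and -0.03 ± 0.16).

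Eif5b, the GTPase that joins the ribosomal subunits, went against the group. It was at 55.2, 51.0, 39.5 and 68.3 rescaled TPM in ND nontumor and 49.9, 39.1, 40.6 and 25.3 in ND tumor libraries, which overlapped. On KD it was at 19.0, 22.6, 44.4 and 27.1 in nontumor and 13.7, 11.97, 17.9 and 12.3 in tumor libraries, which did not overlap. The change was -0.47 ± 0.26 (adjusted p = 0.186) on ND and -0.91 ± 0.26 (adjusted p = 0.012) on KD. Eif5b overlaps Rev1 on the opposite strand.

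Between the diets, tumors differed in fewer of these genes. In KD tumors against ND tumors 8 of 62 genes were higher, 3 were lower and 51 did not pass, where 7.21% of all tested genes were higher, 8.49% lower and 15.7% passed in either direction. The median log2 fold change of the 62 genes was 0.43, beside 0.03 over all tested genes, and 54 of 62 fold changes were positive. Higher were Eef1e1 (1.12 ± 0.32, adjusted p = 0.0269), Eif5a (0.94 ± 0.28, adjusted p = 0.0357), Eif3k (0.88 ± 0.28, adjusted p = 0.0468), Eif4e (0.73 ± 0.24, adjusted p = 0.0468), Eif4h (0.70 ± 0.20, adjusted p = 0.0299), Eif3f (0.69 ± 0.20, adjusted p = 0.0288), Eif2s2 (0.67 ± 0.16, adjusted p = 0.014) and Eif3i (0.61 ± 0.17, adjusted p = 0.0232). All 8 had KD tumor values above all ND tumor values, as did 21 of the 62 genes (12.3% of all tested genes), and 3 had them below (10.5%). These 8 calls depend on the scale: with the listed genes brought to a common sum 0 genes were higher and 4 lower, with a median of -0.03 for the 62 genes beside -0.33 for all genes, and on the deposited TPM 0 were higher and 0 lower.

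The upward calls also rest on few libraries. The count of 8 higher and 3 lower became 1 and 3 without ND tumor 1, 2 and 2 without ND tumor 3, 3 and 3 without ND tumor 4, 3 and 3 without KD tumor 2, 1 and 2 without KD tumor 3, and 2 and 2 without KD tumor 4, and 11 and 3 without the shallow ND nontumor 4. Eif2s2 was the 1 upward call kept in all 16 fits without a library, with a highest adjusted p of 0.0496. Eif4e kept its call in 5 of 16, Eif3k in 6, Eif5a in 10, Eif4h and Eif3f in 11, and Eef1e1 and Eif3i in 12. KD tumor 3 was the highest KD tumor library for Eef1e1 (12.7 rescaled TPM, the others 6.45 to 9.79) and for Eif5a (350, the others 175 to 217).

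The 3 genes that were lower in KD tumors kept their direction and call with a common sum too. Eif4g3 was at 39.8, 31.9, 25.5 and 30.5 rescaled TPM in KD tumors, below all 4 ND tumors (52.2 to 84.1), and fell by 1.05 (SE 0.17, adjusted p = 0.00184). Eif5b fell by 1.39 (SE 0.26, adjusted p = 0.00354), with KD tumors at 11.97 to 17.9 and ND tumors at 25.3 to 49.9. Both calls were kept in all 16 fits without a library. Eif4enif1, which carries Eif4e into the nucleus and represses translation, was at 13.7 to 14.9 in KD tumors and 21.2 to 26.7 in ND tumors and fell by 0.62 (SE 0.17, adjusted p = 0.0225). Its call was lost without ND tumor 3, KD tumor 3 or KD tumor 4 (highest adjusted p 0.0627). On the deposited TPM the values of these 3 genes were -1.09, -1.43 and -0.66 and did not pass.

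The 3 lower genes are long: the exon length that the values imply is 11063 bases for Eif4g3, 9753 for Eif5b and 6370 for Eif4enif1, beside a median of 3335 over the 62 genes. Of the 8 higher genes 4 lie below that median, Eif5a (2377), Eif3k (2698), Eif3f (2891) and Eef1e1 (3257). The other 4 lie above it, Eif3i (3702), Eif4h (5551), Eif4e (6008) and Eif2s2 (6755). Over all 13432 tested genes cut into 4 equal classes of exon length, the shortest class had a median of 0.22 for KD against ND in tumors and the longest -0.07, and for tumor against nontumor liver on KD the medians were 0.23 and -0.13. When this length trend was removed from each library before the fit, the calls were 21 higher and 2 lower on ND, 34 and 2 on KD, and 11 and 3 for KD against ND in tumors, and each call of the 31 genes named by rule was kept. That adjustment was chosen after the data had been seen.

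In nontumor liver the diets gave no call. With limma 0 of 62 genes were higher and 0 lower, where 0.0521% of all tested genes passed in either direction, 0.00744% higher and 0.0447% lower; 4 genes had an unadjusted p under 0.05, and voom on the recovered reads called 0 as well. Eif5b came nearest, with 19.0 to 44.4 rescaled TPM on KD and 39.5 to 68.3 on ND, an overlap at KD nontumor 3, and a value of -0.94 ± 0.26 (adjusted p = 0.205). Eif4ebp3 was at 6.57, 4.58, 2.99 and 4.41 on KD and 0, 0.59, 2.49 and 0.632 on ND, without overlap (1.66 ± 0.56, adjusted p = 0.337). Eef2k and Eif4g2 changed by 0.58 ± 0.25 and 0.31 ± 0.14. With sample weights Eif5b and Eif4ebp3 passed, at -1.13 and 1.74 (adjusted p = 0.00446 and 0.0433). Values lay higher on KD without overlap for 2 of the 62 genes (Eif4ebp3 and Eif4g2; 3.19% of all tested genes) and lower for 1 (Eif4g3; 2.79%). The median over the 62 genes was 0.01, as over all genes.

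Whether the diet difference itself was larger in tumors was tested as an interaction. It passed for 0 of 62 genes in either direction, where 0.618% of all tested genes passed (0.208% higher, 0.409% lower); 5 genes had an unadjusted p under 0.05 and voom called 0. So the 16 genes that rose in tumors on KD but did not pass on ND, among them Eif4e, Eif5a, Eif2s1 and Eif4a1, are not shown to differ between the diets. The smallest p belonged to Eif4g3 (-0.74 ± 0.24, adjusted p = 0.139), which rose in tumors on ND and not on KD, followed by Eef1e1 (1.15 ± 0.45), Eif4e (0.84 ± 0.33), Eif3k (0.94 ± 0.40) and Eif3a (0.55 ± 0.24). The median interaction was 0.35 over the 62 genes and 0.00 over all genes, and it was -0.21 beside -0.46 with a common sum.

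Ratios of 2 genes in the same library do not depend on the library's scale. Of 15 pairs listed, 13 could be formed, each in 4 comparisons, and an exact two-sided permutation test over 70 assignments cannot go below p = 0.0286. This value was reached in 13 of 52 comparisons, with an adjusted p of 0.114, so 0 passed. The ratio of Eif4a1 to Eif4a2 was 0.691, 0.940, 1.12 and 1.20 in ND nontumor and 2.84, 2.22, 2.16 and 1.87 in ND tumor libraries, and 1.38, 1.30, 0.781 and 0.854 in KD nontumor and 2.73, 2.16, 3.03 and 1.59 in KD tumor libraries. All tumor ratios lay above all nontumor ratios of their diet, by mean differences of 1.22 and 1.14 on the log2 scale.

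The ratio of Eif4ebp1 to Eif4ebp2 was 0.266 to 0.308 in ND nontumor, 0.554 to 1.07 in ND tumor, 0.183 to 0.446 in KD nontumor and 0.488 to 1.12 in KD tumor libraries, higher in tumors by 1.36 and 1.34 (log2) without overlap. Eif4e per Eif4ebp1 was 0.327 to 0.526 in ND nontumor and 0.117 to 0.172 in ND tumor libraries, lower in tumors by 1.59 (log2 difference -1.59). On KD it was 0.272 to 0.400 in nontumor and 0.0963 to 0.337 in tumor libraries, which overlapped at KD tumor 4. Eif4g1 per Eif4g3 was 0.768 to 1.35 in ND tumors and 2.09 to 3.95 in KD tumors, a log2 difference of 1.45, and 1.30 to 1.81 against 1.86 to 2.65 in nontumor liver, a difference of 0.41. Neither pair of groups overlapped, and neither ratio passed after adjustment. Eif4e per Eif4e2 was 0.381 to 0.637 in ND tumors and 0.697 to 1.34 in KD tumors.

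**Figure D4:**
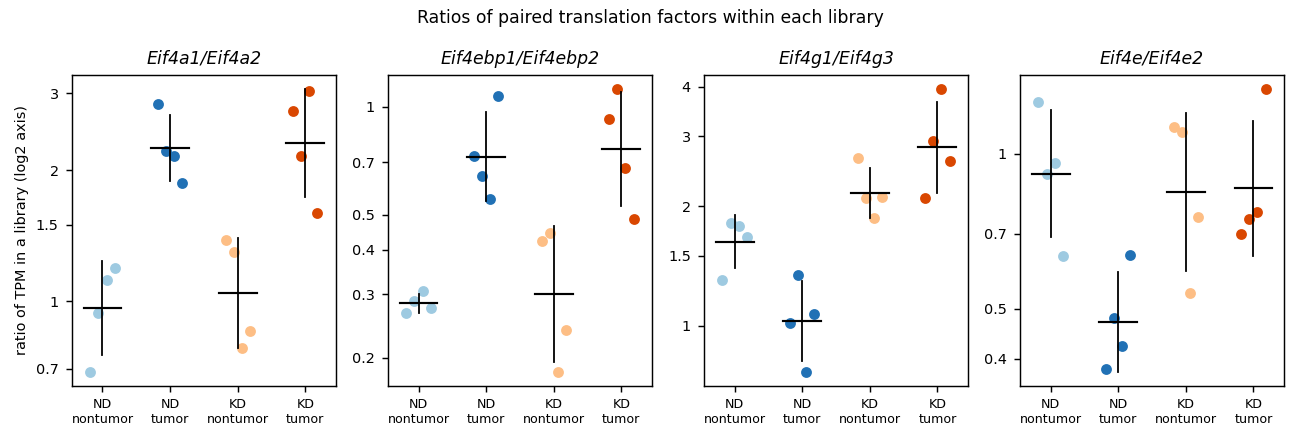
Ratio of the TPM of paired genes within each library (points; log2 axis), with the mean of the log2 ratios (line) and their SD (bar), n = 4. The Eif4a1/Eif4a2 and Eif4ebp1/Eif4ebp2 ratios separate tumor from nontumor liver on both diets, and the Eif4g1/Eif4g3 ratio separates KD from ND in both tissues.

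As shares of the summed TPM of the 62 genes, the eEF1 genes made up 32.1 ± 0.62% (SD, n = 4) in ND nontumor and 43.7 ± 3.0% in ND tumor libraries, and 31.5 ± 2.5% and 45.0 ± 3.6% on KD. The eIF4F genes went from 13.5 ± 0.90% to 9.56 ± 0.77% on ND and from 13.8 ± 1.7% to 8.24 ± 1.1% on KD. The eIF2B genes went from 4.20 ± 0.34% to 2.44 ± 0.067% on ND and from 3.69 ± 0.48% to 1.99 ± 0.36% on KD. None of these groups overlapped, and each reached the smallest p of the exact permutation test (0.0286, adjusted p = 0.0929), as did 16 of 52 comparisons over 13 complexes, 0 of them past 0.05. Shares add to a whole, so a larger eEF1 share lowers the others. Genes were assigned to complexes by symbol, so the eIF4F share also holds Eif4a3, Eif4g2, Eif4e2 and Eif4e3, and the eEF1 share holds Eef1e1. The share of Eif5a was 2.74 ± 0.10% in ND tumors and 3.84 ± 0.55% in KD tumors, without overlap.

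**Figure D5:**
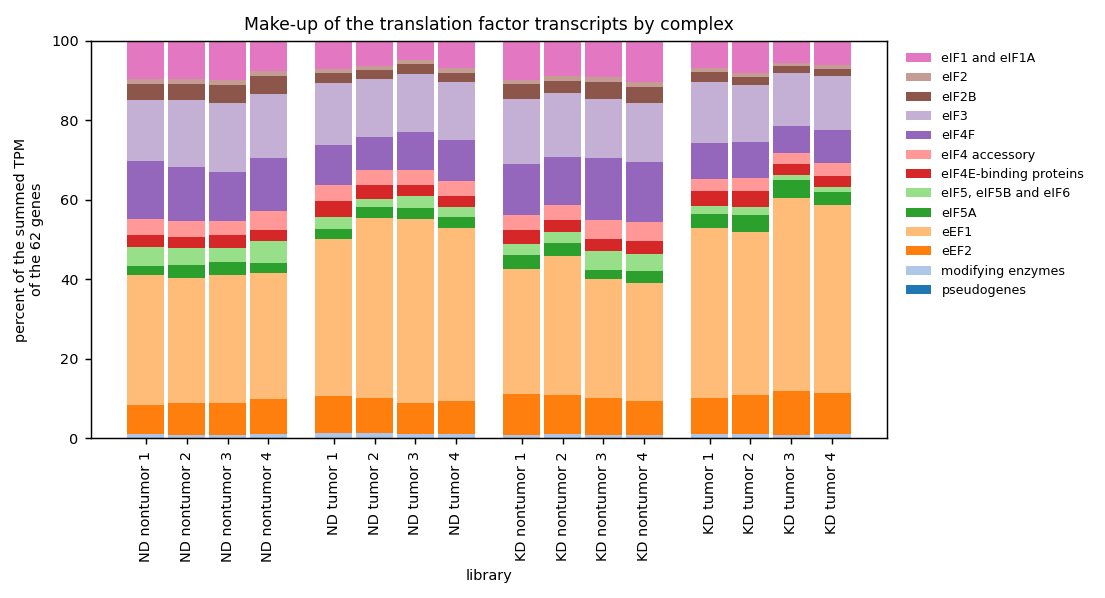
Stacked bars of the share of each complex in the summed TPM of the 62 genes, in percent, for each library. The eEF1 share is 39.5% to 48.8% in tumor libraries and at most 34.96% in nontumor libraries, and eIF1, eIF2B and eIF4F take smaller shares in tumors.

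The E-box genes can be set beside the others as a description. Of the 13 genes with CACGTG 2 rose in tumors on ND, 10 on KD and 5 were higher in KD than in ND tumors. Of the 32 without it 8, 12 and 2 did so. These are 15.4%, 76.9% and 38.5% of the genes with the motif and 25.0%, 37.5% and 6.25% of those without, beside 14.5%, 16.3% and 7.21% of all tested genes. The median fold changes were 0.20 and 0.19 on ND, 0.74 and 0.40 on KD, and 0.69 and 0.26 for KD against ND in tumors. No test was made of these differences, and the KD tumor libraries enter both of the last comparisons. The counts depend on the scale. With a common sum the KD rises of Eef1aknmt, Eif3a, Eif4a1, Eif4e and Eif4h, which have the motif, ended. So did those of Eif2d, Eif2s2, Eif3b, Eif3c, Eif4b and Eif4ebp2, which lack it. On that scale and on the deposited TPM 0 of the 62 genes were higher in KD than in ND tumors.

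Other genes of translation were counted from lists, beside 14.5% of all tested genes that rose on ND, 16.3% on KD and 7.21% that were higher in KD than in ND tumors. Of 16 partners of initiation 3 rose and 1 fell in ND tumors, 9 rose and 0 fell in KD tumors, and 3 were higher in KD than in ND tumors (18.8%, 56.2% and 18.8% upward). Pdcd4, which binds and blocks the eIF4A helicase, rose by 1.14 ± 0.19 (adjusted p = 0.000275) on ND and 0.96 ± 0.19 (adjusted p = 0.00111) on KD. Pabpc1, the poly(A)-binding protein that contacts eIF4G, rose by 0.58 ± 0.21 (adjusted p = 0.0455) and 1.36 ± 0.21 (adjusted p = 0.00017). Of 8 termination and recycling genes 2 and 3 rose (25.0% and 37.5%), including the release factor Etf1 (0.61 ± 0.22 and 1.06 ± 0.22). Of 9 genes for hypusine and diphthamide, the modifications of eIF5A and eEF2, 2 and 3 rose (22.2% and 33.3%), with Dohh, which completes hypusine, at 0.78 ± 0.27 and 0.84 ± 0.27. None of these 3 lists had a member that fell on KD.

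Regulators were mixed. Of 15 genes of mTORC1 and S6 kinase 5 rose and 1 fell on ND, and 5 rose (33.3% each time) and 4 fell on KD, where 16.2% of all tested genes fell. The inhibitor Ddit4 rose by 2.20 ± 0.40 and 1.99 ± 0.40, while the inhibitors Tsc1 and Tsc2 fell on KD by 0.79 and 0.63. Rps6kb2, an S6 kinase, fell by 1.05 on KD and by 1.31 in KD against ND tumors. In that last comparison 1 of the 15 genes was higher and 2 were lower, beside 7.21% and 8.49% of all tested genes. Of 9 mitochondrial translation factors 0 rose and 1 fell on ND, 1 rose and 1 fell on KD, and 3 were higher in KD than in ND tumors, with Gfm1, the mitochondrial translocase, at -0.68 ± 0.24, 0.10 ± 0.24 and 1.10 ± 0.24. Neither eIF4E kinase (Mknk1 and Mknk2) passed in any comparison. Of 7 eIF2 kinase and phosphatase genes 1 rose and 1 fell on ND and 0 passed on KD. In KD against ND tumors 1 of the 7 was higher and 1 was lower. The higher 1 was Ppp1r15b, which guides the eIF2 phosphatase (1.13 ± 0.21, adjusted p = 0.00421). Of 9 tested ATF4 targets, genes induced when eIF2 alpha is phosphorylated, 7 rose on ND and 5 on KD, led by Phgdh (4.19 ± 0.49 and 4.00 ± 0.49). These are 77.8% and 55.6%, beside 14.5% and 16.3% of all tested genes. None of these regulator lists, nor the lists above, had a call in nontumor liver or in the interaction.

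Markers of other cell types moved with the same comparisons. The counts of markers and proliferation genes below stand beside these shares of all tested genes. In tumors 14.5% rose and 14.2% fell on ND, and 16.3% rose and 16.2% fell on KD. In KD against ND tumors 7.21% were higher and 8.49% lower. The 6 Kupffer cell markers summed to 338 to 465 rescaled TPM in ND nontumor and 15.8 to 39.1 in ND tumor libraries, and to 181 to 359 and 35.1 to 66.5 on KD, with 6 and 5 of 6 lower. The 7 monocyte and macrophage markers summed to 211 to 273 in ND nontumor and 622 to 2190 in ND tumor libraries, and to 95.7 to 318 and 875 to 2689 on KD. On ND 2 of them were higher, Spp1 (3.05) and Cd14 (2.92), and Csf1r was lower (-0.85), while on KD 3 were higher and 0 lower. In tumors most of this sum was Spp1, at 501 to 1889 on ND and 737 to 2508 on KD. Adgre1 (0.04 and -0.08), Cd68 (0.24 and 0.29) and Ccr2 (0.85 and 0.87) passed on neither diet. Lyz2 passed on KD only (0.27 and 1.13). The 10 hepatocyte markers summed to 44526 to 81464 in ND nontumor, 58239 to 109578 in ND tumor, 29848 to 80955 in KD nontumor and 112007 to 159122 in KD tumor libraries. Of these, Cps1, Cyp2e1 and Tat were lower in tumors on both diets (-2.45, -4.82 and -3.72 on ND), 0 were higher on ND, and Alb and Fgb were higher on KD. Alb and Apoa1 made up most of the hepatocyte sum, at 64031 to 81787 and 36449 to 65413 in KD tumors.

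Of 5 endothelial markers 3 were higher and 2 lower on ND and 0 passed on KD, of 6 stellate cell and fibroblast markers 2 were higher and 2 lower on ND and 3 and 1 on KD, and of 3 tested cholangiocyte markers 1 was higher and 1 lower on ND and 0 passed on KD. Both tested red cell markers were lower on ND, and 0 passed on KD. In KD against ND tumors Clec4g (2.41) and Stab2 (1.16) of sinusoidal endothelium and Cd5l (1.72) and Clec4f (0.90) of Kupffer cells were higher. So were S100a8 (1.87) of neutrophils and the hepatocyte gene Cyp2e1 (3.17). The endothelial genes Pecam1 (-1.74) and Cdh5 (-1.28) and the cholangiocyte gene Sox9 (-1.96) were lower. The other tested cholangiocyte markers, Krt19 (0.70) and Epcam (0.45), had positive values and did not pass. By list these calls were 2 higher and 2 lower of 5 endothelial markers and 2 higher of 6 Kupffer cell markers. They were 1 higher of 10 hepatocyte, 1 higher of 2 tested neutrophil and 1 lower of 3 tested cholangiocyte markers. T and NK cell, B cell and neutrophil markers summed to at most 32.5, 21.2 and 87.2 in any library, with Ly6g at 0 in all ND nontumor and KD tumor libraries and Mpo at 0 in all ND tumor and KD nontumor libraries. Of 5 tested T and NK cell markers 2 were higher in tumors on ND, Cd3d (1.21) and Nkg7 (1.14). On KD 1 was higher, Nkg7 (1.55), and 0 were lower on either diet. No tested B cell or neutrophil marker passed between tumor and nontumor liver. Of 8 proliferation genes 6 rose on ND and 8 on KD, and all 3 tested liver tumor markers rose on both diets. The part of cell type and proliferation in the changes of the translation factors was not tested.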

How the data were processed

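RNA-seq of 16 libraries was used, 4 each of ND nontumor, ND tumor, KD nontumor and KD tumor liver. The values are TPM per gene as deposited by the authors. FastQC, HISAT2, SAMtools, featureCounts and the build mm10 are named in the submitters' processing notes, and versions, annotation and strand settings are not given in the sources used here. The nontumor columns carry a P where the sample titles carry an N and were matched on that basis. TPM were divided by median-of-ratios factors over 12119 genes above 0 in all libraries, and log2(value + 1) was tested with limma 3.58.1 (variance trend, R 4.3.3) in 1 fit of all libraries without a block, over 13432 genes with at least 1 TPM in at least 4 libraries. Benjamini-Hochberg adjustment ran over all these genes. Because n = 4 limits precision and TPM hide depth, whole reads were recovered from the steps of the values and used for depth and for voom as an alternative. Scripts were tested on simulated data. On the rescaled scale, for ND tumor against nontumor, 10.1% of the genes changed 2-fold in that simulation were called. Of those changed 4-fold 98.0% were called. A gene that did not pass is therefore not shown to be unchanged.

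Ratios and shares were compared with exact two-sided permutation tests (Python 3.11.15, scipy 1.17.1). The 31 genes named by rule were those of the 8 largest rises and falls per comparison that passed without overlap, and the genes of a fixed list. That list does not hold a gene of every complex. Others were named because they are extremes of a complex or because their groups or counts are discussed. The members, lists and naming rule were chosen with earlier results of these data known. Alternatives were the scale, pseudocount, filter, groups in the fit, sample weights, replicate block, voom and leaving out each library. Promoters are from RefSeq (GRCm38.p6) and gene positions and overlaps from GENCODE M21, in which 59 of the 62 genes matched 1 entry. Pseudogenes share sequence with their parent genes, so their values are uncertain. Protein sequences were not used here.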

Additional observations from a re-analysis of the deposited data

Results flagged for a closer look

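In 6 of 124 groups of 4 libraries examined for the named genes, 1 library lay far from the other 3 (Dixon's 95% criterion), and 1 in 20 of the groups, or 6.2, would do so by chance. Eif4e was low in ND nontumor 4, at 5.24 rescaled TPM where the others had 8.73 to 9.06. Eif4g3 was high in the same library, at 50.7 against 43.7 to 44.3. Eef1g was low in ND tumor 4, at 96.2 against 124 to 128, and Eif4enif1 was high in ND tumor 3, at 26.7 against 21.2 to 21.5. A pair of eIF2B subunits was low in KD tumor 4, Eif2b4 at 21.8 against 27.9 to 28.9 and Eif2b5 at 17.2 against 21.9 to 22.6. No interaction of diet and tissue passed for the 62 genes with limma (0 of 62, with 5 at an unadjusted p under 0.05, and 0 with voom).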

How the results depend on the processing

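The counts of genes past the threshold were 20 (ND tumor against nontumor), 34 (KD tumor against nontumor), 11 (KD against ND in tumors), 0 (in nontumor liver) and 0 (interaction). On the deposited TPM they were 3, 3, 0, 1 and 0, and of 155 comparisons of named genes 43 lost their call and 1 changed sign, Eif2b4 on ND (0.086, adjusted p = 0.949 in limma). With a common sum the KD count was 22, the diet count in tumors 4 and the interaction count 1 (Eif4g3). Without the filter on low values, which adds genes to the adjustment, the diet count in tumors was 7, and sample weights gave 2 in nontumor liver. Leaving out each library in turn gave 14 to 23, 26 to 36, 3 to 14, 0 to 0 and 0 to 0. Same-numbered libraries did not deviate together (r from -0.112 to 0.141 on ND and -0.0451 to 0.164 on KD), so the numbers were not taken as pairs. With the replicate number as a block the counts were 18, 34, 9, 0 and 0, and with diet and number as a random block (correlation -0.0214) 20, 34, 12, 0 and 0. The block ended the calls of Eef2 on ND (0.67, adjusted p = 0.0633 in limma) and, between diets in tumors, of Eif3k (0.88, 0.0668) and Eif4e (0.73, 0.0714). Ratios and shares gave 0 calls under every alternative run, and an exact permutation test of 3 against 4 libraries cannot go below p = 0.0571. The cause of these changes was not tested. ND nontumor 4 had the fewest recovered reads, about 3518970, and the precision of genes of low level by library was not compared.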
